A study of Mus musculus with 6 samples.

Results

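Platelet-derived growth factor (PDGF) and vascular endothelial growth factor (VEGF) signalling was followed in the fetal mouse gonad through 9 genes, the ligands *Pdgfa*, *Pdgfb*, *Vegfa* and *Vegfc* and the receptors *Pdgfra*, *Pdgfrb*, *Flt1*, *Kdr* and *Flt4*. They were chosen by symbol and are 9 of the 26251 genes listed in at least 1 library, and all 9 are listed in every library. Gonads at E15.5 were studied by droplet-based single cell mRNA sequencing (10x Genomics) in 3 groups of 2 libraries, in a C57BL/6 background. Control XY are testes and control XX are ovaries, both *Amh*+/+; *Inhbb*+/+, and dKO XY are XY gonads that lack both genes in every cell (*Amh*-/-; *Inhbb*-/-). The labels name the dKO XY gonads testes, while the paper describes them at this age as ovotestes, with ovarian tissue at the poles. *Amh* encodes anti-Müllerian hormone and *Inhbb* the βB subunit of activins and inhibins. The gonad pair of an animal was pooled, dissociated and frozen until the genotype was known, and no XX gonads without these genes were analysed here.

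PDGF ligands are dimers that signal through receptor tyrosine kinases on neighbouring cells. PDGF-A acts mainly through PDGFRα, and PDGF-B, released by endothelium, draws PDGFRβ-bearing pericytes to vessels. In the fetal testis, PDGF-A from Sertoli cells is known to act on PDGFRα of the interstitium, where it is needed for vessel and Leydig cell development. VEGF-A guides endothelial growth through KDR (VEGFR2) and is bound by FLT1 (VEGFR1), which limits its supply, while VEGF-C acts through FLT4 (VEGFR3), best known from lymphatic vessels.

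The filter on genes per cell and mitochondrial share kept 39350 of 68064 barcodes, with 118475468 to 221675316 UMIs per library (unique molecular identifiers, each standing for 1 captured mRNA molecule). Of 39174 distinct kept barcodes, 175 occurred in 2 or more libraries. Cells were clustered and the clusters named from marker lists. Levels are given as CPM, a gene's UMIs per 1000000 UMIs of the cells of 1 type and library. *Amh* in supporting cells had a level of 2029 and 1894 CPM in control XY, 18 and 15.6 CPM in the dKO libraries and 1.34 and 1.41 CPM in those of control XX. *Inhbb* was at 161 and 184, 41.5 and 50.5, and 37.3 and 25.3 CPM in the same order, so both targeted genes were lower in the dKO XY libraries than in control XY, and *Inhbb* was not at 0. Values below are always given in this order, control XY, dKO XY, control XX, with replicate 1 before replicate 2.

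Each receptor had 1 or 2 cell types that held most of its UMIs. Endothelial cells held 92.7 to 97.7% of the *Flt1* UMIs of a library, 85.3 to 93.2% of those of *Flt4*, and 55.0 to 84.4% of those of the ligand *Pdgfb*. Interstitial cells held 85.2 to 95.7% of the *Pdgfra* UMIs and 71.9 to 84.4% of the *Pdgfrb* UMIs, with a further 11.7 to 19.1% of *Pdgfrb* in pericytes. These shares follow the number of cells as well as the level, and interstitial cells numbered 1522 to 6323 per library against 51 to 292 pericytes. For *Kdr*, endothelial cells held 44.4 to 84.1% and interstitial cells 8.40 to 43.5%. The ligands *Pdgfa* and *Vegfa* were spread over more types. Supporting cells held 37.5 to 77.6% of the *Pdgfa* UMIs and interstitial cells 4.29 to 52.1%. Interstitial cells held 25 to 72.6% of the *Vegfa* UMIs and supporting cells 1.71 to 66.7%.

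**Figure D1:**
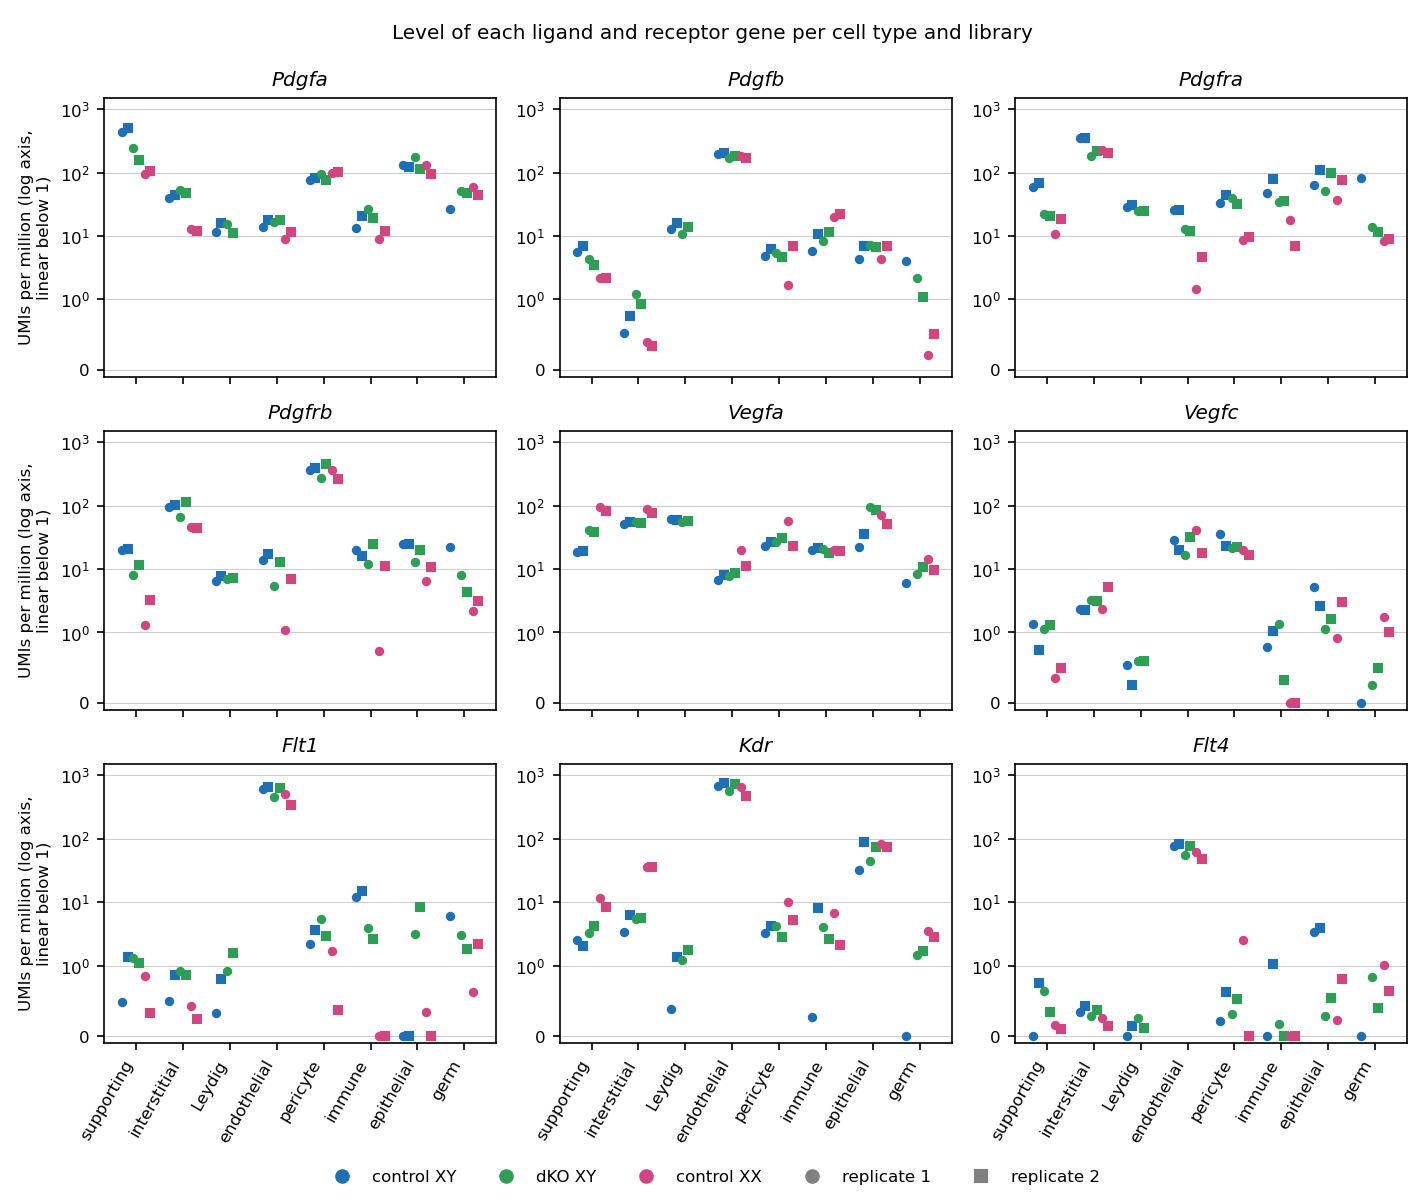
Level of the 9 genes in each cell type, in CPM, on an axis that is logarithmic above 1 and linear below it, with 1 point per library coloured by group. *Flt1* and *Flt4* stand out in endothelial cells, *Pdgfrb* in pericytes and *Pdgfra* in interstitial cells in all 6 libraries.

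The VEGF receptors marked the endothelium in every library. *Kdr*, on chromosome 5 from 75932827 to 75978458 (GENCODE M21 on GRCm38), was at 682 and 747, 566 and 744, and 647 and 478 CPM in endothelial cells. *Flt1*, on chromosome 5 from 147561604 to 147726011, was at 612 and 659, 456 and 638, and 510 and 343 CPM. For both genes the 2 control XX libraries lay below those of control XY, with the lowest value in control XX replicate 2, while the dKO XY range overlapped each of the other groups. *Flt4*, on chromosome 11 from 49609263 to 49652739, was at 76.0 and 84.2, 56.2 and 78.2, and 62.5 and 48.8 CPM there and at no more than 3.86 CPM in any other type.

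The promoters of *Kdr* and *Flt1* are shown because these genes share the endothelial pattern. RefSeq gives 250 bases before the start of each on GRCm38.p6, at chr5:75978459-75978705 (minus strand, with 3 exonic bases left out) and chr5:147726012-147726261 (minus strand). Capitals mark each GGAA, or TTCC on the other strand, the core that ETS factors bind, and the matches do not overlap.
Kdr: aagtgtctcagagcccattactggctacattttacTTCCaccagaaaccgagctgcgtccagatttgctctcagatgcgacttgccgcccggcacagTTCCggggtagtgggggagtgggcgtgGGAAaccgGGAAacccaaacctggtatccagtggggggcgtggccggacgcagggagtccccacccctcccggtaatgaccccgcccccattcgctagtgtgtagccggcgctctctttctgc
Flt1: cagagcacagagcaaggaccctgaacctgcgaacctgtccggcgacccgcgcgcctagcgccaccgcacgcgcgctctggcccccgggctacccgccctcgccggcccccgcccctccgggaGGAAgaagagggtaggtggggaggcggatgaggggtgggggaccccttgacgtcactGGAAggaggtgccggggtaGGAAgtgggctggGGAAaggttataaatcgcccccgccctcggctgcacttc
Each window holds 4 matches, as do 33.4% of the 32851 promoters of this length when at least 4 are asked for, and 93.4% hold at least 1. The *Vegfa* window, printed further on, holds 6 of these cores, and 8.69% of promoters hold at least that many. The count is a description of the letters, not of bound sites.

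Nearly every endothelial cell had a UMI of *Kdr* (98.6 to 100% per library) and of *Flt1* (98.0 to 100%), at a median of 26306 to 43804 UMIs per cell. Leydig cells, which should lack these receptors, had a *Kdr* UMI in 1.70 to 3.89% of cells at a median of 35287 to 41148 UMIs. With each cell thinned to 5000 UMIs the endothelial shares were 86.3 to 92.7% for *Kdr* and 80.3 to 95.0% for *Flt1*, and those for *Flt4* went from 71.8 to 87.4% to 23.1 to 42.3%. *Pdgfb*, on chromosome 15 from 79995874 to 80014977, was found in 89.7 to 96.5% of the same cells, at 196 and 204, 172 and 183, and 180 and 167 CPM. Leydig cells followed at 10.7 to 15.9 CPM in the XY groups, and interstitial cells had at most 1.19 CPM. *Vegfc*, on chromosome 8 from 54077606 to 54187096, had its highest levels in endothelial cells (28.4 and 20.2, 16.8 and 31.7, 41.6 and 18 CPM) and pericytes (35.4 and 23.1, 21.2 and 22.0, 19.6 and 16.6 CPM), whose ranges overlapped in each group.

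Within the endothelium, loss of *Amh* and *Inhbb* moved no gene of the set past the test. Differences were tested on the summed counts with edgeR, and a gene is called at an adjusted p under 0.05. Between dKO XY and control XY endothelial cells, edgeR called 0 of 9 genes and DESeq2 0, with 1 at an unadjusted p under 0.05, where 0.542% of all genes tested were called. Control XX against control XY called 2 of 9 (4.71% of all genes), *Vegfa* and *Pdgfra*, and dKO XY against control XX called *Pdgfra* alone (2.85% of all genes). *Kdr* had log2 fold changes of -0.12 ± 0.16 (SE, adjusted p = 0.893) for dKO XY and -0.30 ± 0.16 (adjusted p = 0.393) for control XX against control XY. *Flt1* had -0.53 ± 0.18 (adjusted p = 0.153) in control XX. Of 8 VEGF-responsive endothelial genes, edgeR called 0 between dKO XY and control XY, with 4 at an unadjusted p under 0.05 and 0 by DESeq2, and 0 between control XX and control XY, with 2 at an unadjusted p under 0.05 and 1 by DESeq2. *Esm1*, a secreted proteoglycan of tip cells, had a higher level in dKO XY than in control XX (24.6 and 40.8, 44.7 and 51.7, 20.1 and 14.5 CPM, log2 1.42 ± 0.22, adjusted p = 0.00421).

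*Vegfa* was at 6.69 and 7.99, 7.78 and 8.68, and 20.2 and 11.2 CPM in endothelial cells, a log2 rise of 1.14 ± 0.28 in control XX over control XY (adjusted p = 0.0373). The summed level of 8 granulosa markers in these cells was 63.4 and 56.1, 75.1 and 65.5, and 165 and 164 CPM, with 2 of the 8 at 0 in control XY replicate 1 and none at 0 in the other libraries. The part of granulosa transcripts in the *Vegfa* difference was not tested. The call was lost without either control XY library or control XX replicate 1, with log2 values of 0.66 to 1.31 and adjusted p of 0.19 to 0.276, and also with DESeq2 (adjusted p 0.0798) and with cells under 10% mitochondrial UMIs (adjusted p 0.0695).

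*Pdgfa* was the gene most tied to the supporting cells, the lineage of Sertoli and granulosa cells, in XY gonads. It lies on chromosome 5 from 138976014 to 138997370 and had levels of 439 and 505 CPM in control XY, 247 and 156 CPM in the dKO libraries and 95.9 and 108 CPM in those of control XX supporting cells. The 3 groups did not overlap, and dKO XY lay between the controls. In control XY the supporting level was above that of every other type, with epithelial cells next at 134 and 121 CPM. In dKO XY the supporting and epithelial ranges overlapped (epithelial 174 and 116 CPM), and in control XX supporting, epithelial (134 and 95.7 CPM) and pericyte (99.9 and 101 CPM) ranges overlapped.

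In supporting cells, *Pdgfa* fell in dKO XY against control XY (log2 fold change -1.22 ± 0.19, adjusted p = 0.00255), was lower in control XX than in control XY (-2.26 ± 0.20, adjusted p = 1.27e-05) and higher in dKO XY than in control XX (1.04 ± 0.19, adjusted p = 0.00208). It was 1 of 3 genes of the 9 called between dKO XY and control XY, where 16.7% of all genes were called. Of the other comparisons, control XX against control XY called 7 of 9 (48.7% of all genes) and dKO XY against control XX called 7 of 9 (40.7%), so these counts stand against a large background. Supporting cells of dKO XY are a mixture, with 677 and 422 Sertoli-like cells and 433 and 444 cells of an unnamed subcluster that was nearly empty in control XY (12 and 26 cells). Its *Pdgfa* was at 131 and 91.5 CPM. Sertoli-like cells alone, which nurse germ cells and form the cords, had 533 and 596 CPM in control XY and 333 and 227 CPM in dKO XY (-1.06 ± 0.18, adjusted p = 0.00254). There 2 of 9 genes were called (14.5% of all genes), *Pdgfa* and *Vegfa*, and both calls were kept on leaving out any XY library. Per 100 UMIs of 11 Sertoli markers, Sertoli-like cells had 7.22 and 8.72 *Pdgfa* UMIs in control XY against 3.4 and 2.87 in dKO XY, while the markers themselves summed to 7380 and 6834 and to 9798 and 7930 CPM.

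*Vegfa* went the other way in the same cells. It lies on chromosome 17 from 46016993 to 46032369, and supporting cells had 18.6 and 19.0 CPM in control XY, 41.2 and 38.6 CPM in the dKO libraries and 94.8 and 82.6 CPM in those of control XX, without overlap. It rose in dKO XY against control XY (1.09 ± 0.13, adjusted p = 0.000476), was higher in control XX than in control XY (2.19 ± 0.13, adjusted p = 1.13e-06) and lower in dKO XY than in control XX (-1.10 ± 0.12, adjusted p = 8.4e-05). In Sertoli-like cells it was at 10.1 and 11.0 CPM in control XY against 27 and 23.5 in dKO XY (1.20 ± 0.17, adjusted p = 0.000838). The unnamed subcluster of dKO XY had 56.1 and 50.04 CPM and granulosa-like cells of control XX 101 and 88.0 CPM. Granulosa markers in Sertoli-like cells moved with it, at 26.4 and 26.9 CPM in control XY against 156 and 198 in dKO XY, with 1 of 8 at 0 in control XY replicate 1. Their part in the result was not tested.

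**Figure D2:**
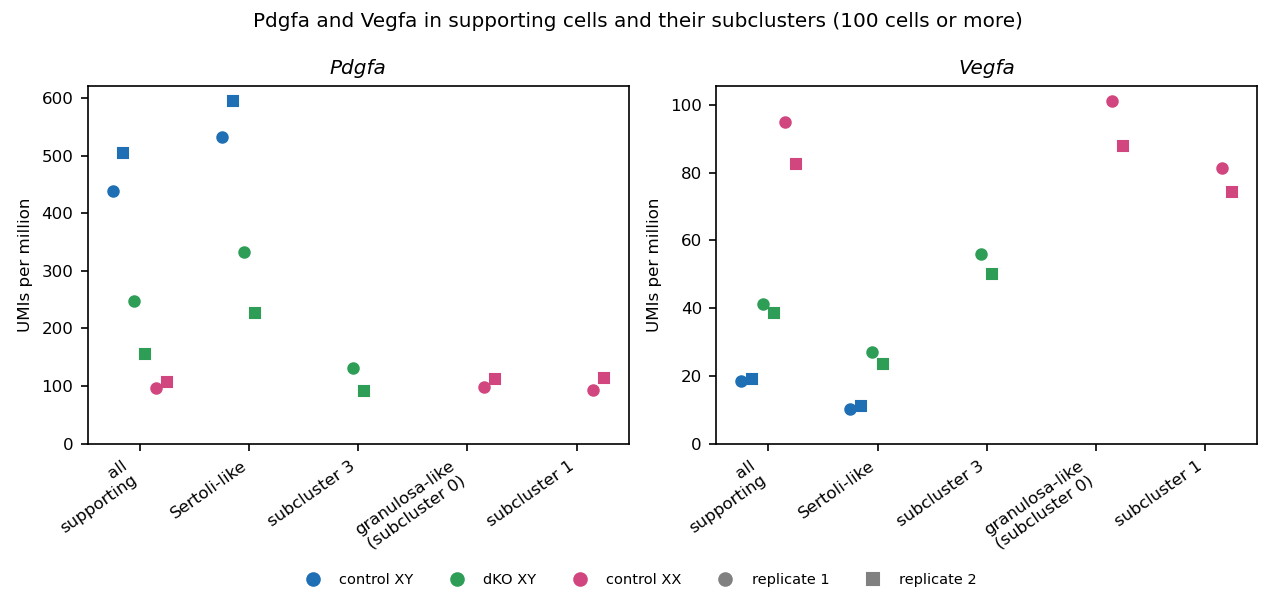
*Pdgfa* and *Vegfa* in all supporting cells and in their subclusters with at least 100 cells, in CPM, with 1 point per library coloured by group and axes from 0. *Pdgfa* is lower and *Vegfa* higher in the dKO libraries than in those of control XY, among all supporting cells and among Sertoli-like cells alone. Among all supporting cells the dKO libraries lie between the 2 control groups for both genes.

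The *Vegfa* promoter is shown as that of a ligand whose level differed between groups in several types. On GRCm38.p6 RefSeq places it at chr17:46032378-46032627 (minus strand). Capitals mark GGGCGG, the GC box, for which CCGCCC on the other strand was searched as well.
Vegfa: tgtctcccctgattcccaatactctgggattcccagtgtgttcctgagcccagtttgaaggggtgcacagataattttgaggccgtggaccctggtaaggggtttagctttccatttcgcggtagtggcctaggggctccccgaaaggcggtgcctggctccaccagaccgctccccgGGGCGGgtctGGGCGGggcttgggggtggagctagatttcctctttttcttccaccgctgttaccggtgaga
It holds 2 GC boxes, and 16.7% of promoters of this length hold at least 2, while 32.7% hold at least 1. The windows of *Kdr* and *Flt1* hold 2 and 3 GC boxes. The *Pdgfra* window was searched for both motifs too and held 0 GC boxes and 4 GGAA cores. RefSeq entries were matched for 7 of the 9 genes, and a window free of exonic bases remained for 5 of them.

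Outside the supporting cells *Vegfa* reached its highest levels in epithelial cells, the interstitium and Leydig cells. Pericytes were at 23.2 to 58.1 CPM, a range that overlapped those of these 3 types. Leydig cells, the androgen-producing cells that were found in XY gonads only, had 61.4 and 60.5 CPM in control XY against 54.8 and 58.3 in dKO XY. Interstitial cells had 50.9 and 55.8, 54.9 and 52.8, and 87.4 and 76.0 CPM, with a log2 difference of 0.01 ± 0.09 (adjusted p = 0.986) between dKO XY and control XY and a higher level in control XX (0.68 ± 0.09, adjusted p = 0.00137). Epithelial cells, which cover the gonad, had 22.3 and 36.0, 96.8 and 85.1, and 70.8 and 51.5 CPM. There *Vegfa* rose in dKO XY (1.65 ± 0.26, adjusted p = 0.00468) and in control XX (1.13 ± 0.26, adjusted p = 0.0346) against control XY, which rests on 30 and 40 control XY epithelial cells. Interstitial markers summed to 4675 and 4419 CPM in these control XY cells, as high as in interstitial cells (4512 to 4833 CPM), against 941 and 1196 CPM in the dKO libraries and 904 and 2732 CPM in XX epithelial cells, with none of the 8 at 0. Their part in the epithelial results was not tested. Without control XY replicate 1 the dKO XY value was 1.39 at an adjusted p of 0.0529. The control XX call was lost without either control XY library or control XX replicate 1 (0.88 to 1.52, adjusted p 0.0821 to 0.234), with only the 2 groups compared, at a clustering resolution of 0.5 and with the set kept in the clustering (adjusted p 0.055, 0.0624 and 0.0689).

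*Pdgfra*, the receptor of PDGF-A, was the interstitial gene of the set. It lies on chromosome 5 from 75152292 to 75198215. Interstitial cells had 348 and 354 CPM in control XY, 184 and 217 CPM in the dKO libraries and 227 and 207 CPM in those of control XX, so that both other groups lay below control XY and overlapped each other. *Pdgfra* fell in dKO XY (-0.82 ± 0.10, adjusted p = 0.00499) and was lower in control XX (-0.63 ± 0.10, adjusted p = 0.00289) than in control XY, and dKO XY and control XX differed by -0.19 ± 0.10 (adjusted p = 0.206). The 8 interstitial markers moved with it in dKO XY, at 4833 and 4512, 3169 and 2966, and 4068 and 4949 CPM in the same cells, with none at 0. *Pdgfra* per 100 UMIs of these markers was 7.20 and 7.86, 5.80 and 7.30, and 5.59 and 4.18, so that the dKO XY and control XY ranges overlapped on this scale and both XX libraries lay lowest. The part of this marker change in the *Pdgfra* result was not tested. *Pdgfra* was the only gene of 9 called between dKO XY and control XY interstitial cells, where 7.21% of all genes were called. Control XX against control XY called 5 of 9 (25.1% of all genes) and dKO XY against control XX 6 of 9 (28.3%).

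Interstitial cells fell into 3 clusters, and XX cells were nearly all in cluster 2 (1514 and 2933 cells) while XY cells were mostly in clusters 0 and 1. Within cluster 0, *Pdgfra* was at 382 and 396 CPM in control XY against 213 and 246 in dKO XY (-0.76 ± 0.08, adjusted p = 0.00506). This cluster called 1 of the 9 genes, where 12% of all genes were called. Cluster 1 had 321 and 320 against 169 and 206 CPM (-0.76 ± 0.10, adjusted p = 0.0104). It called 2 of the 9 genes (8.15% of all genes), since *Pdgfa* rose by 0.45 ± 0.10 (adjusted p = 0.0389). In cluster 2 *Pdgfra* was at 218 and 219, 138 and 177, and 228 and 207 CPM. There dKO XY and control XY differed by -0.50 ± 0.14 (adjusted p = 0.346), 0% of all genes were called and edgeR called 0 genes of the set, with 2 at an unadjusted p under 0.05. DESeq2 was not run on this cluster. Control XX and control XY differed in cluster 2 by 0.03 ± 0.13 (adjusted p = 0.914), so the lower *Pdgfra* of all XX interstitial cells was not seen within the cluster that holds them. Of the 6 genes tested there, 4 were called between control XX and control XY (11.1% of all genes) and 5 between dKO XY and control XX (12.7%). *Pdgfra* was among the latter, lower in dKO XY than in control XX by a log2 difference of -0.54 ± 0.13 (adjusted p = 0.0239).

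**Figure D3:**
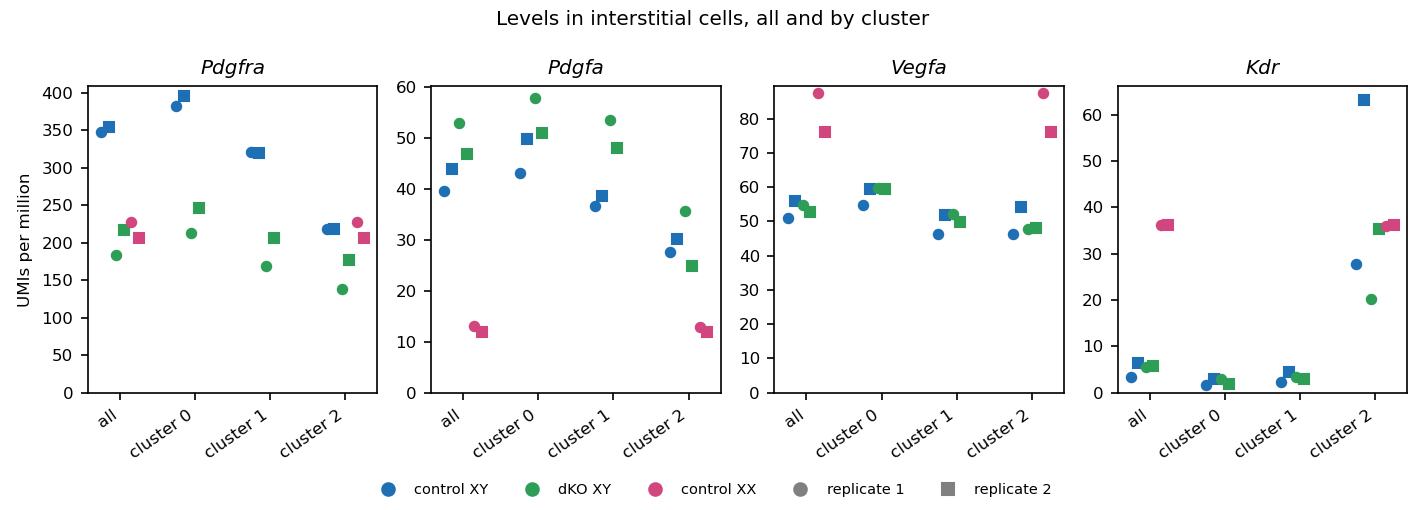
Levels in all interstitial cells and in each of their 3 clusters, in CPM with axes from 0, with 1 point per library coloured by group. *Pdgfra* is lower in dKO XY than in control XY in each cluster, and *Kdr* is high in cluster 2 of every group.

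*Pdgfra* also differed between groups in cell types where its level was low. Supporting cells had 58.4 and 69.3, 22.5 and 20.6, and 10.8 and 18.6 CPM, a fall of -1.56 ± 0.22 in dKO XY (adjusted p = 0.00123) and -2.19 ± 0.22 in control XX (adjusted p = 3.28e-05) against control XY. The sum of 8 interstitial markers in these supporting cells was 708 and 805, 333 and 282, and 144 and 343 CPM, with none of the 8 at 0. Per 100 UMIs of these markers supporting cells had 8.24 and 8.61, 6.74 and 7.29, and 7.52 and 5.42 *Pdgfra* UMIs, close to the 4.18 to 7.86 of interstitial cells themselves. Sertoli-like cells, with *Pdgfra* at 9.12 and 12.1 CPM in control XY against 8.11 and 7.96 in dKO XY, gave no call (-0.47 ± 0.21, adjusted p = 0.187). Supporting cells with high *Tcf21*, 1 of the 8 interstitial markers, had been left out before Sertoli-like cells were defined. That choice lowers interstitial transcripts in Sertoli-like cells, and their part in the *Pdgfra* result was not tested. The call between the dKO XY and XX libraries (0.63 ± 0.22, adjusted p = 0.0419) was lost without control XY replicate 2, either dKO XY library or control XX replicate 1 (0.28 to 0.68, adjusted p 0.0513 to 0.252) and with only the 2 groups compared (adjusted p 0.0523).

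In endothelial cells *Pdgfra* was at 25.4 and 25.9, 12.7 and 12.1, and 1.47 and 4.71 CPM, which gave -3.14 ± 0.34 for control XX against control XY (adjusted p = 0.000271) and 2.11 ± 0.35 for dKO XY against control XX (adjusted p = 0.00618). The first value was -2.36 and -4.09, and the second 1.33 and 3.06, without control XX replicate 1 and replicate 2 in turn, and the calls were kept. The interstitial markers summed to 452 and 614, 334 and 371, and 230 and 357 CPM there, with none at 0, so that *Pdgfra* per 100 marker UMIs was 5.62 and 4.21, 3.80 and 3.26, and 0.639 and 1.32. Pericytes had 33.0 and 44.3, 40.0 and 32.5, and 8.54 and 9.58 CPM, lower in control XX than in control XY (-2.0 ± 0.27, adjusted p = 0.000305) and higher in dKO XY than in control XX (1.90 ± 0.27, adjusted p = 0.000548). Their ratio to the interstitial markers was 2.06 and 2.64, 3.08 and 2.35, and 0.690 and 0.751 per 100, at marker sums of 1237 to 1676 CPM. In these 2 types the ratio was lower in both control XX libraries than in the other 4. The part of interstitial transcripts in the endothelial and pericyte differences was not tested further.

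**Figure D4:**
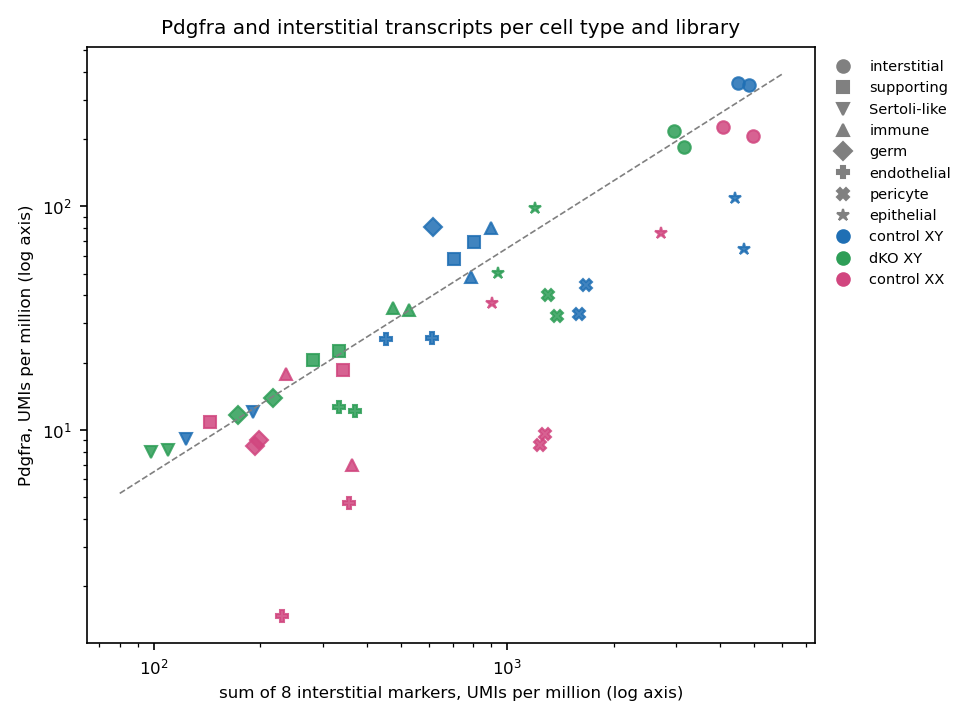
*Pdgfra* against the sum of 8 interstitial markers per cell type and library, both in CPM on logarithmic axes, with shapes for cell types and colours for groups. Supporting cells lie near the ratio of interstitial cells (5.42 to 8.61 against 4.18 to 7.86 per 100 marker UMIs), and control XX endothelial cells and pericytes lie lowest (0.639 to 1.32). Pericytes of both XY groups (2.06 to 3.08), dKO XY endothelial cells (3.26 to 3.80) and epithelial cells of both control groups (1.37 to 4.10) also lie below the interstitial range.

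*Pdgfrb*, on chromosome 18, was the pericyte receptor. Pericytes had 360 and 392, 269 and 462, and 365 and 265 CPM, and the 3 groups overlapped. A UMI of *Pdgfrb* was found in 96.6 to 99.2% of pericytes at a median of 19016 to 21677 UMIs. It was also found in 52.03 to 74.5% of interstitial cells, at a median of 16440 to 23465 UMIs. Leydig cells had such a UMI in 11.7 to 13.4% of cells. Between dKO XY and control XY pericytes edgeR called 0 of 8 genes tested and DESeq2 0, with 0 at an unadjusted p under 0.05 and 0.225% of all genes called. The 2 comparisons with control XX called 1 of 8 each, *Pdgfra*, where 7.43% (control XX against control XY) and 6.25% (dKO XY against control XX) of all genes were called.

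*Pdgfrb* was next highest in the interstitium, with 94.0 and 102, 65.6 and 114, and 45.9 and 44.2 CPM. Both XX libraries were below all XY libraries, by -1.06 ± 0.21 against control XY (adjusted p = 0.00774), and dKO XY was above control XX by 0.91 ± 0.21 (adjusted p = 0.0141). Each call was lost by a small margin without either control XX library (adjusted p 0.0507 and 0.051 for the first and 0.0695 and 0.0706 for the second). The pericyte markers were also lowest in the XX libraries, at 86.9 and 101, 85.4 and 108, and 72.0 and 68.5 CPM with none of the 7 at 0. Per 100 of their UMIs interstitial *Pdgfrb* was at 108 and 101, 76.8 and 105, and 63.8 and 64.5, lowest in both XX libraries, and their part was not tested further. Within interstitial cluster 2 the same differences were -1.01 ± 0.19 (adjusted p = 0.00605) and 1.27 ± 0.19 (adjusted p = 0.00129). In supporting cells *Pdgfrb* was at 20.03 and 20.6, 7.93 and 11.5, and 1.31 and 3.31 CPM, with a difference of -1.06 ± 0.33 between dKO XY and control XY that missed the threshold (adjusted p = 0.0592) and of -3.30 ± 0.37 between control XX and control XY (adjusted p = 6.52e-05). The 7 pericyte markers moved the same way in these cells, at 52.2 and 64.7, 34.7 and 35.7, and 12.98 and 16.8 CPM, with 1 of 7 at 0 in dKO XY replicate 2 and in control XX replicate 1, as did the interstitial markers given above. Per 100 pericyte marker UMIs, supporting cells had 38.4 and 31.8, 22.9 and 32.1, and 10.1 and 19.7 *Pdgfrb* UMIs, and the part of these transcripts was not tested. The -3.30 of control XX became -2.67 without its replicate 1, -3.98 without its replicate 2 and -4.17 without the highest doublet scores, and stayed called.

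*Kdr* was also found outside the endothelium. Interstitial cells had 3.4 and 6.36 CPM in control XY, 5.47 and 5.67 CPM in the dKO libraries and 36.1 and 36.2 CPM in those of control XX, a log2 difference of 2.96 ± 0.25 between control XX and control XY (adjusted p = 0.000106) and of -2.77 ± 0.25 between dKO XY and control XX (adjusted p = 0.000161). In cluster 2 *Kdr* was at 27.7 and 63.1, 20.2 and 35.3, and 36.0 and 36.2 CPM. There control XY overlapped each other group (-0.28 ± 0.32 for control XX against control XY, adjusted p = 0.65). Both dKO XY libraries lay below those of control XX, without a call (-0.47 ± 0.32, adjusted p = 0.418). Clusters 0 and 1 of the XY libraries had 1.72 to 4.43 CPM. The 7 endothelial markers summed to 57.8 and 56.0, 61.3 and 60.6, and 21.3 and 22.8 CPM in interstitial cells, with none at 0, and were thus lowest in the XX libraries where *Kdr* was highest. Per 100 endothelial marker UMIs, XX interstitial cells had 170 and 159 *Kdr* UMIs against 10.2 to 17.4 in endothelial cells. In cluster 2, *Pecam1*, an adhesion molecule of endothelium, had a UMI in 1.96 to 8.62% of the cells with a *Kdr* UMI and in 1.04 to 5.08% of those without one.

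Epithelial cells also held *Kdr*, at 31.7 and 88.7, 44.5 and 74.9, and 82.7 and 74.3 CPM, with overlapping groups and 71.5 to 394 *Kdr* UMIs per 100 endothelial marker UMIs. Their *Flt1* counts were 0 and 0, 22 and 63, and 3 and 0. In CPM the dKO XY libraries were at 3.13 and 8.47, and a count of 0 in control XY allows up to 2.57 and 1.93 CPM (3 counts), a limit for counting error only. *Flt1* was called in dKO XY against control XY (adjusted p = 0.048) and against control XX (adjusted p = 0.0281). It passed the filter on low counts through the dKO XY libraries alone, so these calls are no support beyond the counts themselves. The first call was lost on leaving out any control XY or dKO XY library (adjusted p 0.0639 to 0.237) and the second without dKO XY replicate 2 (adjusted p 0.387). Endothelial markers in these cells were at 30.8 and 22.5, 62.3 and 90.0, and 41.3 and 35.1 CPM, with 4 and 2 of 7 at 0 in control XY, none in either dKO library and 0 and 2 in the XX libraries, and their part was not tested. Epithelial cells called 2 of 9 genes between dKO XY and control XY (6.91% of all genes), 2 between control XX and control XY (4.56%, with *Pdgfrb* beside *Vegfa*) and 1 between dKO XY and control XX (2.3%). The *Pdgfrb* call (-1.45 ± 0.34, adjusted p = 0.0382) was lost without either control XY library, dKO XY replicate 1 or control XX replicate 1 (adjusted p 0.0515 to 0.181). It was also lost with only the 2 groups compared, without the highest doublet scores and with cells under 10% mitochondrial UMIs (adjusted p 0.0613, 0.0925 and 0.0679). The 7 pericyte markers moved with it, at 51.4 and 57.2 CPM in control XY against 22.0 and 33.7 in control XX, with 1 or 2 at 0 in each of these 4 libraries, and their part was not tested.

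**Figure D5:**
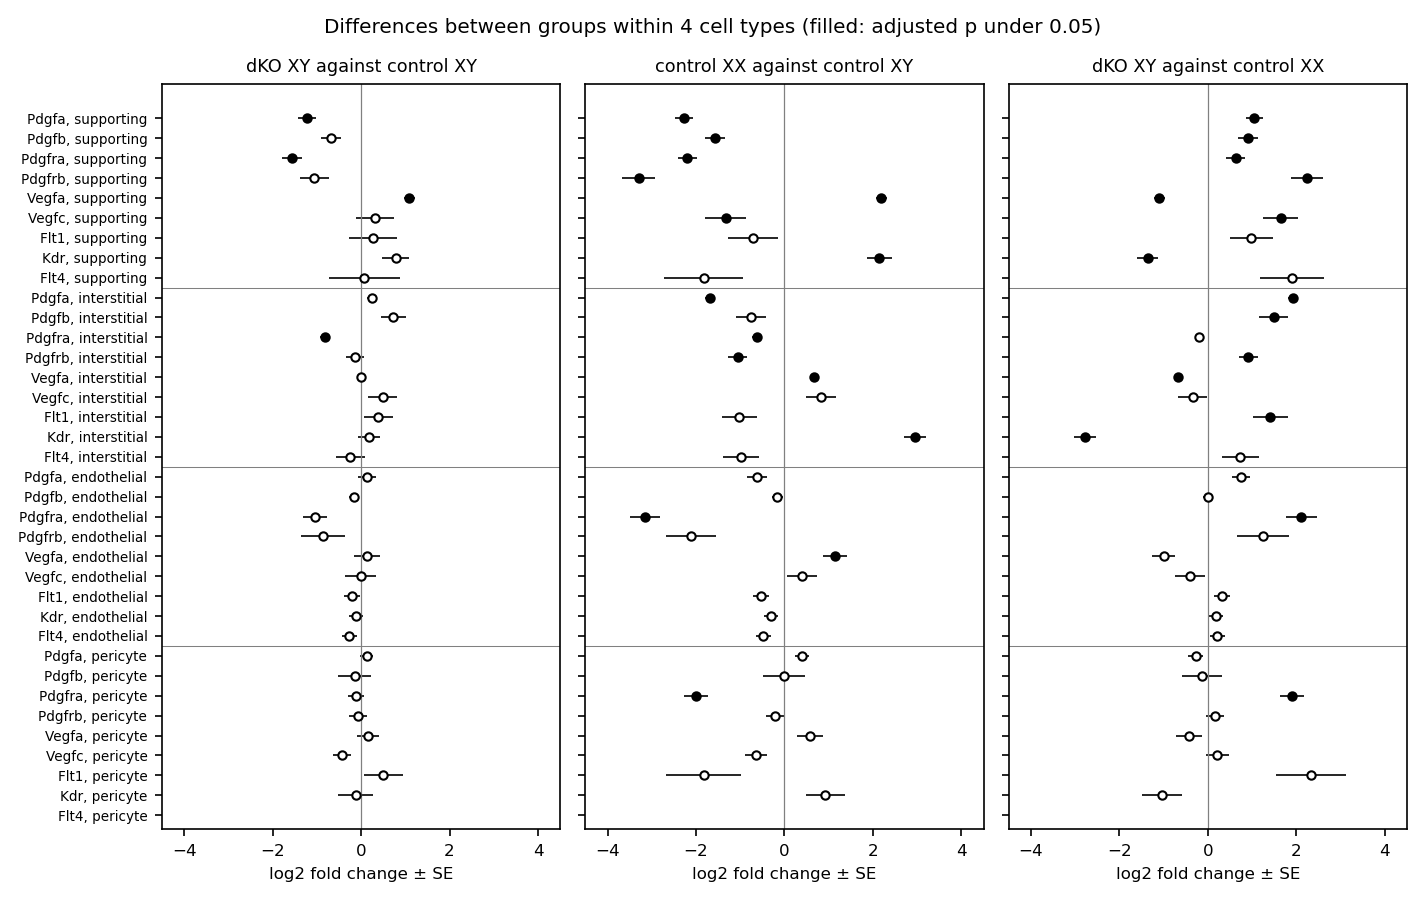
Log2 fold changes with standard errors of the genes in 4 cell types for the 3 comparisons of groups, with filled points at an adjusted p under 0.05. *Pdgfa* lies left of 0 and *Vegfa* right of 0 in supporting cells of both dKO XY and control XX against control XY.

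Supporting cells had smaller amounts of the other genes. *Pdgfb* was at 5.58 and 6.84, 4.35 and 3.47, and 2.19 and 2.16 CPM, *Kdr* at 2.55 and 2.01, 3.31 and 4.28, and 11.8 and 8.38 CPM, and *Vegfc* at 1.34 and 0.753, 1.12 and 1.31, and 0.348 and 0.491 CPM. All 3 were called for control XX against control XY (-1.57 ± 0.23, 2.14 ± 0.28 and -1.33 ± 0.46) and for dKO XY against control XX (0.90 ± 0.22, -1.36 ± 0.24 and 1.65 ± 0.39). Endothelial markers in these cells were at 33.8 and 38.3, 31.8 and 32.2, and 28.2 and 30.4 CPM. They were lowest in control XX, as were the pericyte markers given above and *Pdgfb* and *Vegfc*, while *Kdr* was highest there. The part of these transcripts was not tested. Without the highest doublet scores the control XX value was 2.92 for *Kdr* and -2.06 for *Vegfc*. EdgeR called none of the 3 genes between dKO XY and control XY. Of the whole set DESeq2 called 4 genes there, against 3 by edgeR. For *Vegfc* the control XX call was lost on leaving out any library but control XY replicate 2 (adjusted p 0.0517 to 0.2) and with DESeq2 (adjusted p 0.069), and the dKO XY against control XX call without dKO XY replicate 2 or control XX replicate 1 (adjusted p 0.0521 and 0.0759). The *Pdgfb* call of dKO XY against control XX was lost without dKO XY replicate 1 (adjusted p 0.0633) and with cells under 10% mitochondrial UMIs (adjusted p 0.063). In interstitial cells *Pdgfa* was at 39.5 and 43.9, 53.0 and 46.8, and 13 and 11.9 CPM, lower in control XX than in control XY (-1.68 ± 0.11, adjusted p = 3.34e-05) and higher in dKO XY than in control XX (1.93 ± 0.12, adjusted p = 2.06e-05). Within cluster 2 these differences were -1.17 ± 0.19 (adjusted p = 0.00219) and 1.23 ± 0.18 (adjusted p = 0.00116). Interstitial *Flt1* and *Pdgfb* were called between dKO XY and control XX at mean levels of no more than 1.06 CPM. The 7 endothelial markers moved with both, at 61.3 and 60.6 CPM in dKO XY against 21.3 and 22.8 in control XX, and per 100 of their UMIs *Flt1* was at 1.51 and 1.42 against 2.01 and 1.06 and *Pdgfb* at 1.95 and 1.55 against 1.87 and 1.46, so that the groups overlapped. Their part in these calls was not tested further. *Flt1* lost its call without either dKO XY library or control XX replicate 2 (adjusted p 0.0572 to 0.191) and with the set kept in the clustering (adjusted p 0.058), and *Pdgfb* without control XX replicate 2 (adjusted p 0.079).

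Leydig cells gave no call between dKO XY and control XY. EdgeR called 0 of 8 genes tested and DESeq2 0, with 2 at an unadjusted p under 0.05, where 6.6% of all genes were called. *Pdgfra* was at 28.8 and 30.7 against 25 and 24.7 CPM (-0.29 ± 0.09, adjusted p = 0.117) and *Vegfa* differed by -0.13 ± 0.08 (adjusted p = 0.417).

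Immune cells, a class that also holds erythroid cells, and germ cells had low levels of most genes of the set. *Pdgfa* was the exception in germ cells, at 26.2 CPM in the 1 control XY library tested, 50.9 and 48.3 CPM in dKO XY and 58.2 and 44.2 CPM in control XX, with overlapping dKO XY and control XX ranges (0.03 ± 0.19, adjusted p = 0.919). *Pdgfb* of control XX immune cells, at 19.9 and 22.4 CPM, was second to endothelial cells and stood against 5.87 and 10.8 CPM in control XY and 8.46 and 11.7 CPM in dKO XY, with no call (control XX against control XY 1.42 ± 0.35, adjusted p = 0.0867). In immune cells edgeR and DESeq2 called 0 of 7 genes tested between dKO XY and control XY, with 2 at an unadjusted p under 0.05 and 0.00865% of all genes called, and 0 of 7 between dKO XY and control XX, with 4 at an unadjusted p under 0.05 and 0.355% of all genes called. Control XX against control XY called 2 of 7 (2.56% of all genes). These were *Pdgfra*, at 48.3 and 80.2, 34.3 and 35, and 17.7 and 6.99 CPM, and *Flt1*, at 12 and 15, 3.89 and 2.59, and 0 and 0 CPM. Both were lost on leaving out any XY library (adjusted p 0.0831 to 0.192 and 0.0525 to 0.151), with only the 2 groups compared (0.0851 and 0.0538) and without the highest doublet scores (0.0835 and 0.0841). The *Pdgfra* value of -2.32 moved to -3.16 without control XX replicate 1, to -4.62 at resolution 0.5 and to -4.64 with the set kept in the clustering. *Flt1* had 0 UMIs in both XX libraries and passed the filter on low counts through the XY libraries alone, so its call is no support beyond the levels themselves. Interstitial markers in immune cells were at 787 and 902 CPM in control XY against 236 and 363 in control XX, and their part in the *Pdgfra* result was not tested. Control XY germ cells are 1 library of 15 cells, as the other had 7. *Pdgfra* was at 80.7 CPM in it, against 13.9 and 11.7 CPM in the dKO libraries and 8.47 and 8.99 CPM in the XX libraries. Germ cells called 1 of 9 genes between dKO XY and control XY (9.17% of all genes), 2 for control XX against control XY (27.1%) and 4 for dKO XY against control XX (49.3%), where DESeq2 called 0. Interstitial markers in germ cells were at 616 CPM in the control XY library and at 173 to 218 CPM in the others, and their part was not tested. Endothelial markers were at 107, 56.4 and 59.2, and 27.6 and 22.6 CPM there and pericyte markers at 30.3, 25.7 and 26.6, and 8.78 and 17.9 CPM, higher in dKO XY than in control XX as were *Pdgfb* and *Pdgfrb*. Of the 7 pericyte markers 4 were at 0 in the control XY library and 1 in dKO XY replicate 2, none of the endothelial ones was, and their part was not tested either. The 4 genes called for dKO XY against control XX were *Pdgfb*, *Pdgfra*, *Pdgfrb* and *Vegfc*, at mean levels of 0.36 to 12.8 CPM, and each was lost on leaving out at least 1 of dKO XY replicate 1, dKO XY replicate 2 and the control XX libraries (adjusted p 0.0513 to 0.234). The *Pdgfra* call was lost with RLE size factors too (adjusted p 0.0502), and that of *Pdgfrb* without the highest doublet scores (adjusted p 0.131). Without the highest doublet scores germ cell *Pdgfra* was -1.87 between dKO XY and control XY. With cells under 10% mitochondrial UMIs it went from -2.51 to -0.96 between dKO XY and control XY (adjusted p 0.228) and from -3.14 to -1.57 between control XX and control XY (adjusted p 0.0227). The lone control XY library is assumed to vary like the other groups.

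Over all cell types the calls were 7 of 68 tests between dKO XY and control XY (3 higher and 4 lower in dKO XY, where 6.5% of all genes tested over the same types were called), 21 of 60 between control XX and control XY (6 higher and 15 lower in control XX, against 19.1%) and 20 of 60 between dKO XY and control XX (15 higher and 5 lower in dKO XY, against 20.8%). These counts include the epithelial and immune *Flt1* calls and the germ cell calls, of which 1 and 2 in the first pair of comparisons rest on the lone control XY library of 15 cells. Comparisons of the same cell type share their libraries, so they do not support each other.

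Other genes of the 2 families were tested in the same cells. Of 10 further ligands, co-receptors and ligand-processing genes, interstitial cells of dKO XY had 1 higher and 2 lower than control XY, where 7.21% of all genes were called, at a median log2 fold change of -0.24 against -0.01 over all genes. *Pgf*, a VEGF family ligand of FLT1, was at 44.8 and 42.7, 29.5 and 24.6, and 4.87 and 5.08 CPM (dKO XY against control XY -0.70 ± 0.12, adjusted p = 0.0148, and control XX -3.06 ± 0.14, adjusted p = 4.54e-06). *Nrp1*, a co-receptor of VEGF, was at 63.9 and 65.3, 39.1 and 46.2, and 15.4 and 15.3 CPM (-0.61 ± 0.10, adjusted p = 0.0121, and -2.0 ± 0.11, adjusted p = 9.49e-06). For both genes the groups were separate and dKO XY lay between the controls. The 8 interstitial markers were at 4833 and 4512, 3169 and 2966, and 4068 and 4949 CPM in these cells, also lower in dKO XY than in control XY. The mix of interstitial clusters differed between the groups as well. The part of the markers and of this mix in the *Pgf* and *Nrp1* results was not tested. *Nrp2*, the co-receptor more used by VEGF-C, rose in dKO XY (10.5 and 9.05, 19.0 and 17.8, 24.1 and 18.2 CPM, 0.91 ± 0.13, adjusted p = 0.00853).

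Against control XY, control XX interstitial cells had 4 of these 10 genes higher and 3 lower, where 25.1% of all genes were called, at a median of -0.10. *Vegfd*, listed under its older symbol *Figf* and encoding another ligand of FLT4, was at 73.5 and 68.9, 95.0 and 98.5, and 4.70 and 7.75 CPM (-3.41 ± 0.22, adjusted p = 2.51e-05). *Pdgfc*, a further ligand of PDGFRα, was at 4.60 and 4.66, 5.62 and 4.66, and 18.4 and 21.4 CPM (2.18 ± 0.16, adjusted p = 4.16e-05). These interstitial values take all clusters together, while XX cells were nearly all in cluster 2 and XY cells mostly in others. Differences of these genes within cluster 2 are not given here, and the part of the cluster mix was not tested. In supporting cells of dKO XY, 1 of the 10 was higher and 1 lower, a share near the 16.7% of all genes called there, at a median of 0.09 against 0.02 over all genes. *Nrp2* was at 2.43 and 3.01 CPM in control XY against 7.07 and 6.15 in dKO XY (1.27 ± 0.24, adjusted p = 0.00633), and *Pgf* at 11.0 and 7.78 against 3.34 and 3.07 CPM (-1.52 ± 0.29, adjusted p = 0.00661). The interstitial markers in these supporting cells were at 708 and 805 against 333 and 282 CPM, and the level of *Pgf* was higher in the interstitium. In Sertoli-like cells, where these markers were at 123 and 190 against 109.8 and 98.0 CPM, 1 of the 9 genes of the list tested was higher and 0 lower, a share near the 14.5% of all genes called. Sertoli-like cells had been chosen for low *Tcf21*, 1 of these markers, and the part of the markers in the *Pgf* result was not tested.

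*Angpt2*, an antagonist of the endothelial receptor TIE2, was the only called gene of 5 angiopoietin and Tie genes between dKO XY and control XY in both types, where 7.21% (interstitial) and 16.7% (supporting) of all genes were called. It was at 8.66 and 8 against 2.57 and 4.02 CPM in interstitial cells (-1.35 ± 0.24, adjusted p = 0.0161) and at 4.01 and 2.57 against 0.854 and 1.26 CPM in supporting cells (-1.58 ± 0.36, adjusted p = 0.0151). The latter moved with the same interstitial markers, whose part was not tested. In Sertoli-like cells, chosen for low *Tcf21*, edgeR and DESeq2 called 0 of the 2 genes of this list that could be tested, with 1 at an unadjusted p under 0.05. In pericytes *Tek*, which encodes TIE2, was higher in control XX than in control XY (3.47 and 5.19, 2.65 and 3.49, 27.3 and 17.3 CPM, 2.31 ± 0.32, adjusted p = 0.000443). Endothelial markers in pericytes were at 138 and 135, 154 and 149, and 310 and 219.7 CPM, highest in the same libraries, with 1 of 7 at 0 in control XY replicate 1, and their part in the *Tek* result was not tested.

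*Vegfa* is itself induced by hypoxia, and of 11 genes induced by hypoxia 3 rose and 0 fell in dKO XY supporting cells against control XY, where 16.7% of all genes were called, at a median of 0.48 against 0.02 over all genes. In Sertoli-like cells alone 1 of the 11 was higher and 0 lower (14.5% of all genes called), at a median of 0.14. The 3 in supporting cells were *Adm*, a vasoactive peptide (1.34 and 1.88 against 14.5 and 11.6 CPM, 2.97 ± 0.36, adjusted p = 0.000492), and the oxygen sensors *Egln3* (1.83 ± 0.44, adjusted p = 0.0197) and *Egln1* (0.55 ± 0.12, adjusted p = 0.0108). *Ldha*, a glycolytic gene of the list, was at 196 and 194 against 198 and 229 CPM and was not called. Control XX supporting cells had 5 of the 11 higher and 1 lower than control XY, at a median of 0.62 against 0.03, with 48.7% of all genes called there. In interstitial cells edgeR called 1 of the 11 in dKO XY, *Egln3* (1.02 ± 0.20, adjusted p = 0.0228), and DESeq2 3, where edgeR called 7.21% of all genes. In endothelial cells edgeR and DESeq2 called 0 of 11 for dKO XY, with 3 at an unadjusted p under 0.05 and 0.542% of all genes called. Control XX endothelial cells had 3 of 11 higher than control XY and 0 lower (4.71% of all genes called), at a median of 0.62.

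Of 6 lymphatic endothelial genes, 4 could be tested in endothelial cells and edgeR and DESeq2 called 0 between dKO XY and control XY, with 2 at an unadjusted p under 0.05 and 0.542% of all genes called, and 0 between control XX and control XY, with 0 at that level and 4.71% of all genes called. Between dKO XY and control XX both tools called 1 of the 4 (2.85% of all genes called by edgeR), *Pdpn*, a membrane glycoprotein of lymphatic endothelium (1.60 and 4.8, 10.2 and 8.32, 2.08 and 1.57 CPM, 2.28 ± 0.41, adjusted p = 0.0087). *Lyve1*, a hyaluronan receptor of lymphatic endothelium, had a UMI in at most 0.855% of endothelial cells of a library, and *Prox1*, the transcription factor of that lineage, in 11.7 to 19.6%. With each cell thinned to 5000 UMIs the *Prox1* share was 1.56 to 3.09%.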

How the data were processed

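The deposited files hold unnormalized UMI counts of each cell by gene symbol, 1 matrix for each of 6 libraries, which the authors made with Cell Ranger after a correction for barcode swapping. The build is mm10 per the labels, whose processing notes name Seurat 4.0. Counts were filtered as in the authors' code (over 2500 and under 9000 genes, under 25% mitochondrial and under 20% *Hbb* UMIs) and clustered in Seurat 5.3.0 (20 dimensions, resolution 0.21) with R 4.3.3, without the 9 genes and their pathway lists among the variable genes. A cluster was named by at least 3 markers. Supporting cells with a normalized log level of *Sycp3* or *Tcf21* of 1 or more were left out before subclustering, since the paper also removed cells positive for these genes. Sertoli-like cells are therefore selected for low *Tcf21*, which is an interstitial marker. Doublets were not removed, and leaving out the 8.0% highest Scrublet scores (scanpy 1.11.5) was an alternative.

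UMIs were summed per library and type (at least 10 cells) and tested with edgeR 4.0.16 (filterByExpr, TMM, glmQLFTest) by group, with Benjamini-Hochberg adjustment over all genes, 2 libraries per group sharing 1 estimate of the spread. Leydig and Sertoli-like cells used XY libraries alone. The standard error is the log2 fold change over the square root of F. DESeq2 1.42.0 and the other settings named in the closing section were alternatives. The fits were also run on simulated data, whose outcome is not given here.

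Named genes are the 9 genes of the set, the targeted genes, and of each pathway list at most the 4 called genes with the largest change; *Ldha* in 1 comparison and *Lyve1* and *Prox1* were added after their values were seen. The 9 genes and all lists were chosen with earlier results of these data known. Shares of cells with a UMI were also computed on cells thinned to 5000 UMIs.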

Additional observations from a re-analysis of the deposited data

Results flagged for a closer look

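In 1 model over supporting and interstitial cells, with the library as a block, the change between groups differed between the 2 types (difference of log2 fold changes, supporting minus interstitial, edgeR, adjusted over 17330 genes). Genes whose highest group mean was at least 10 CPM in both types are given, and of these *Kdr* did not pass between dKO XY and control XY (0.63 ± 0.39, adjusted p = 0.297) or between control XX and control XY (-0.77 ± 0.39, adjusted p = 0.136). Between dKO XY and control XY the difference was -1.55 ± 0.13 for *Pdgfa* (adjusted p = 5.11e-05), 1.04 ± 0.10 for *Vegfa* (adjusted p = 8.73e-05), -0.79 ± 0.21 for *Pdgfra* (adjusted p = 0.028) and -0.94 ± 0.25 for *Pdgfrb* (adjusted p = 0.0249). Interstitial markers fell with *Pdgfra* in supporting cells, as given beside its levels.

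Between control XX and control XY the difference was 1.47 for *Vegfa*, -0.63 for *Pdgfa*, -1.66 for *Pdgfra* and -2.38 for *Pdgfrb* (adjusted p 1.22e-06 to 0.00332). Between dKO XY and control XX it was 1.40 for *Kdr*, -0.92 for *Pdgfa*, 0.87 for *Pdgfra*, 1.43 for *Pdgfrb* and -0.43 for *Vegfa* (adjusted p 0.000465 to 0.0103). The model takes all interstitial clusters together, while XX interstitial cells lie nearly all in cluster 2 and XY cells mostly in others. Interstitial *Kdr* differed between dKO XY and control XX by -2.77 over all clusters and by -0.47 within cluster 2. The difference between the cell types was not tested by cluster. *Vegfc* was called in opposite directions between dKO XY and control XX, at 1.65 in supporting cells and -1.85 in germ cells, at levels of 0.26 to 1.76 CPM, and the difference between the 2 types was not tested. The germ cell call was lost with DESeq2 (adjusted p 0.379) and without either dKO XY library (log2 values of -1.41 and -2.28). The supporting cell call was lost without dKO XY replicate 2 or control XX replicate 1. These comparisons share libraries and are not independent of each other.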

How the results depend on the processing

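Of the 50 called results for single genes, the number that kept their call was 44 with DESeq2, 49 with RLE size factors, 50 without the filter on low counts, 45 with only the 2 groups compared, 46 under 10% mitochondrial UMIs, 49 at resolution 0.5 and 48 with the set and its lists kept among the variable genes, and 44 of the 48 that could be tested without high doublet scores. None of these settings turned a direction. Within interstitial cluster 2, an alternative chosen after seeing the data, *Kdr* (-0.28) and *Pdgfra* (0.034) turned between control XX and control XY. The XX cells of the interstitium lie almost all in that cluster.

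The count of 7 calls between dKO XY and control XY was 15 without the filter and 11 with only the 2 groups compared, and 4 to 10 on leaving out a library, with 4 without control XY replicate 1. That of 20 between dKO XY and control XX was 32 without the filter and 13 to 21 on leaving out a library, with 13 without dKO XY replicate 1. That of 21 between control XX and control XY was 28 without the filter and 14 to 23 on leaving out a library, with 14 without control XY replicate 1. The 2 calls in Sertoli-like cells were made in every setting.

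Replicate numbers did not pair the samples (correlations of deviations from -0.22 to 0.10 over types and pairs of groups). With a replicate block the counts were 10, 20 and 18 for dKO XY against control XY, control XX against control XY and dKO XY against control XX, and 2 in Sertoli-like cells. The block ended 4 calls, those of *Vegfc* in supporting cells and *Pdgfra* in immune cells (control XX against control XY) and of *Flt1* in interstitial cells and *Pdgfra* in germ cells (dKO XY against control XX).

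With 2 libraries per group, p-values measure the spread between these libraries. Levels under about 1 CPM rest on few UMIs, and control XY germ (15 cells) and epithelial cells (30 and 40) are the least deeply covered. Shares of cells with a UMI moved with depth in all 27 cases on thinning.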

Other observations

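The genes whose level over all 45 sums of a library and a cell type was most like that of each gene (Pearson correlation of log2(CPM + 1) over 11196 genes with a mean of at least 5 CPM) are given as a description, since the sums share libraries and differ in depth. *Pdgfa* was nearest to *Dcbld2*, *Cbarp* and *Daam2* (0.86, 0.86 and 0.83). *Pdgfra* was nearest to the matrix genes *Mfap4*, *Adamts2* and *Dcn* (0.93, 0.91 and 0.91), of which *Dcn* is one of the interstitial markers. *Pdgfrb* was nearest to *Lhfp*, the pericyte marker *Notch3*, and *Rem1* (0.97, 0.96 and 0.95). *Vegfa* was nearest to *Vegfb*, *Doc2b* and *Esr1* (0.88, 0.88 and 0.86), and *Vegfc* to *Gng11*, *Tmem204* and *Meox2* (0.95, 0.93 and 0.93). *Pdgfb* was nearest to *Arhgap18*, *Eogt* and *Ctla2a* (0.92, 0.90 and 0.89), *Kdr* to *S100a16*, *Thsd7a* and *Rapgef3* (0.96, 0.94 and 0.93), *Flt1* to *RP24-171J16.5*, *Cyyr1* and *Ccm2l* (each 0.96) and *Flt4* to *Klhl4*, *Mmrn2* and *Slco2a1* (each 0.97).

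In Leydig cells of dKO XY, where no gene of the set was called, 6 of the 32 genes of the pathway lists that could be tested were, where 6.6% of all genes were called. *Nrp1* fell (10.3 and 8.78 against 6.51 and 4.96 CPM, -0.76 ± 0.18, adjusted p = 0.0447) and *Nrp2* rose (0.507 and 0.903 against 2.69 and 1.77 CPM, 1.59 ± 0.35, adjusted p = 0.0375), the same directions as in interstitial cells. Both genes had higher levels in interstitial cells than in Leydig cells, and the part of interstitial transcripts in these 2 results was not tested. *Aplnr*, the apelin receptor, rose (1.31 and 1.44 against 6.58 and 9.04 CPM, 2.48 ± 0.21, adjusted p = 0.0016).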
